A study of Mus musculus with 8 samples.

Results

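The type I interferon-stimulated genes examined here are a set of 48 genes, taken by gene symbol from the 32285 features of the deposited matrices. All 48 were present. They were followed in pancreatic T cells of the NOD strain, which becomes diabetic through spontaneous autoimmunity, by droplet single-cell RNA-seq with 3′ counting of unique molecular identifiers (UMIs). Per the labels, the sort kept CD45+ CD3+ TcR-beta+ cells, which were frozen before processing, and the mice were female, 3 to 4 months old in one label and 3 to 5 in another. There were 8 libraries, and the number of mice behind each is not stated. Mice of new onset (starting blood glucose 200 to 300 mg/dl) received vehicle (30% ethanol, 5% Tween 20 and 65% PEG300) or PPCA daily, with 1 library of each arm harvested on days 2, 3 and 4. PPCA combines nutlin-3 at 50 mg/kg, an inhibitor of the p53 antagonist MDM2, with MK-1775 at 25 mg/kg, an inhibitor of the WEE1 kinase. The untreated libraries were 1 from onset diabetes (250 mg/dl) and 1 from active diabetes (above 600 mg/dl), so these groups have no replicate. The stated aim was to see how serial treatment alters the T cells that infiltrate the pancreas.

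Type I interferons are cytokines made by cells that sense viral or misplaced nucleic acid. They bind the receptor IFNAR1 and IFNAR2, whose kinases JAK1 and TYK2 activate the factor ISGF3, which includes STAT2 and IRF9. ISGF3 binds interferon-stimulated response elements and switches on a broad antiviral program. In T cells the products restrict viral replication, tune the sensing of nucleic acid and restrain proliferation, and an interferon signature has long been associated with autoimmune diabetes.

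The regulatory sequences show letters of the interferon-stimulated response element, in the 3 members that passed the threshold in a treatment comparison below. Each stretch holds the 250 bases before the annotated start, on the strand of the gene, from RefSeq on GRCm38.p6. Capitals mark GAAA, any 2 bases and GAAA, or the reverse complement TTTC, any 2 bases and TTTC, the letters of an interferon-stimulated response element, with overlapping matches joined.
Isg15, chr4:156200819-156201068, minus strand: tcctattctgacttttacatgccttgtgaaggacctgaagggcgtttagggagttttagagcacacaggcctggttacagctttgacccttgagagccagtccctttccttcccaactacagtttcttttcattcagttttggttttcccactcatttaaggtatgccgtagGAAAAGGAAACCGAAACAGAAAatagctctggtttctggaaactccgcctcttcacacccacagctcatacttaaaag
Ifit1, chr19:34640639-34640888, plus strand: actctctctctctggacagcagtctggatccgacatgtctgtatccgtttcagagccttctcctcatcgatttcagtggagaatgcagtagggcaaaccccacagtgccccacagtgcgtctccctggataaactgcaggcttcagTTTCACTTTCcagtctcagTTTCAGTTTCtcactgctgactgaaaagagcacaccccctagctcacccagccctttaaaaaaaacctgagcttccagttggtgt
Ifit3, chr19:34583279-34583528, plus strand: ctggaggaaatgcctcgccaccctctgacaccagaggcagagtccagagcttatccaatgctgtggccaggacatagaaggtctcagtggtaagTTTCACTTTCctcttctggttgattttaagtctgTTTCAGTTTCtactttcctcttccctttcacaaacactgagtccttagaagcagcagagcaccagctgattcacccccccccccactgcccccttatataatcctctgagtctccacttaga

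The Isg15 stretch holds 3 overlapping matches, which begin 78 to 66 bases before the start. Ifit1 holds 2 matches, beginning 104 and 85 bases before it, and Ifit3 2, at 156 and 122 bases. Of the 48 members 40 had a promoter entry, and 19 of these 40 (47.5%) held at least 1 match in the 250 bases, searched on both strands. Among all 27025 genes with an entry, 936 (3.46%) did. The members with a match included Stat2, Rsad2, Ifit3b, Oas1a, Oas3, Ddx60, Bst2, Slfn5 and 5 PYHIN genes (Ifi203, Ifi206, Ifi208, Ifi213 and Ifi214). Such matches describe letters only.

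The libraries held 7023 to 13129 barcodes and 36934580 to 67603740 UMIs. After filtering, 6151 to 11521 T cells remained per library (70266 in all), with a median of 3856 to 6455 UMIs per cell, lower under PPCA than under vehicle on each day. Any pair of libraries shared the barcodes of at most 30 T cells, and at most 0.374% of the T cells of the smaller library. Labels and transcripts disagreed on sex: 4 libraries (vehicle days 2 and 3, PPCA days 3 and 4) held Y-linked transcripts at 186 to 273 CPM and almost no Xist, where the other 4 held at most 0.188 CPM of them, although the labels describe all mice as female. Only on day 3 did both arms match in this respect. On day 2 the vehicle library alone carried the Y-linked transcripts and on day 4 the PPCA library alone, so a treatment effect that changes with the day cannot be told apart from a difference linked to sex. Without the 4 libraries that carry them, 1 library per arm is left and no test can be made. A T cell list of 6 genes was stable at 5658 to 6808 scaled CPM. Lists of other cell types were read in the same T cells, whose gate had itself used 6 of their genes. Over the 8 libraries a B cell list of 3 genes summed to 5.14 to 8.64 scaled CPM, mainly of Cd79b, with Ms4a1 at 0 to 3 UMIs. A myeloid list of 6 summed to 109.7 to 145, nearly all of it Cst3, while Itgam had 47 to 201 UMIs, Csf1r 1 to 5 and Adgre1 0 to 2. A plasmacytoid dendritic cell list of 3 summed to 26.9 to 60.9, mainly of Ccr9, with Siglech at 0 to 2 UMIs. A list of 4 natural killer and innate genes was highest with PPCA on day 2, at 11.6 scaled CPM, and ranged from 2.64 to 5.76 in the other 7, with none of the 4 at 0 in any library. A list of 12 pancreatic genes summed to 8.93 to 123, with Iapp at 0 to 1 UMIs. The part of these transcripts in the results was not tested.

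Levels are scaled CPM: counts were summed over the cells of a library and divided by its TMM-scaled total, in units of 1000000. In such sums, fewer cells with a transcript and less transcript per cell cannot be told apart. Across all T cells the PPCA library of day 2 had the highest level of 41 of the 48 members among the 8 libraries, against 16.7% of the 13190 genes tested. The active library was the highest for 6 members (13.1% of all genes) and the PPCA library of day 3 for Trim30c alone (6.27%). The 48 members together summed to 5835, 4197 and 2198 CPM across the PPCA libraries of days 2, 3 and 4, and to 3262, 3164 and 2659 CPM under vehicle. The active library stood at 4778 CPM and the onset library at 3446 CPM. PPCA libraries were thus above the vehicle library of their day on days 2 and 3 and below it on day 4, and the arms overlapped. The level fell from day 2 to day 3 to day 4 in 45 of 48 members under PPCA (23.3% of all genes) and in 27 of 48 under vehicle (22.8%), with 1 library per day and no test. The PPCA library of day 4 was the lowest of the 8 for 29 members, against 25.1% of all genes.

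**Figure D1:**
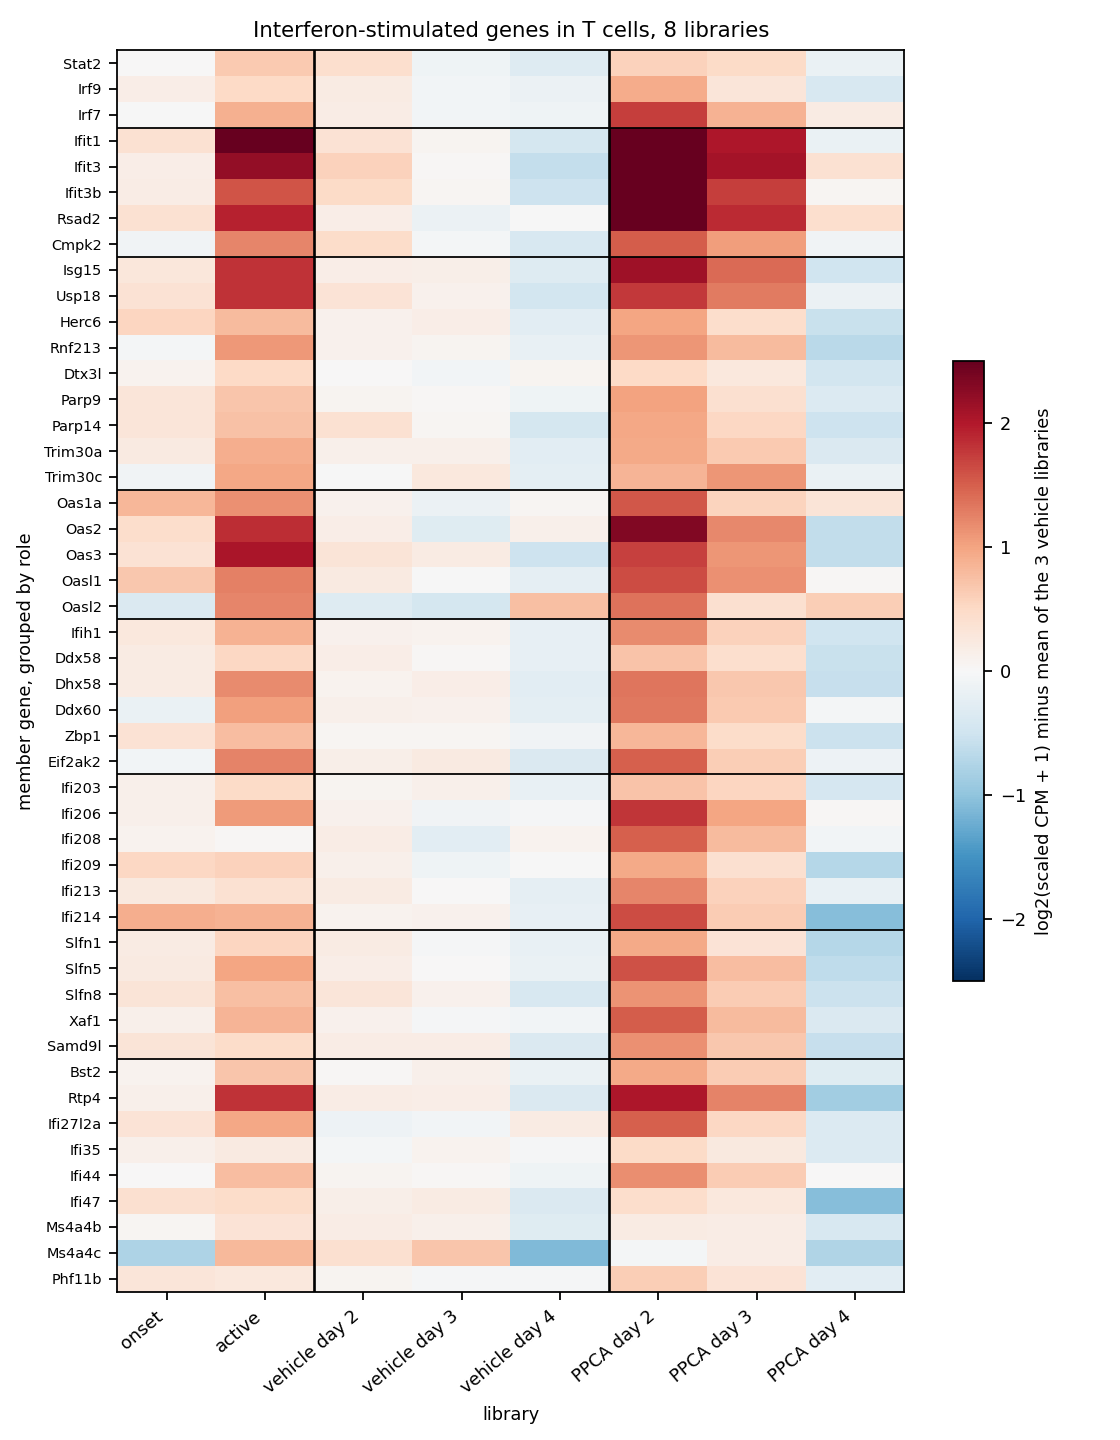
Level of the 48 members in T cells of the 8 libraries (columns), as log2(scaled CPM + 1) minus the mean of the 3 vehicle libraries; black lines separate the role groups and the untreated, vehicle and PPCA libraries. Red is higher and blue lower; the colour scale ends at 2.5, and the columns of PPCA day 2, PPCA day 3 and active are red for nearly all members, while PPCA day 4 is mostly blue.

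The comparison of PPCA with vehicle asked which members differed by treatment within harvest days, over sums of counts per library. Across all T cells 45 of the 48 members had a positive fitted log2 fold change, as 50.0% of all 13193 genes tested did. Their median was 0.57, against 2.6e-05 over all genes, and the range ran from -0.21 (Ms4a4c) to 2.87 (Rsad2). No member passed an adjusted p of 0.05 in edgeR's quasi-likelihood test, as no gene of the 13193 did (0.0%). At an unadjusted p under 0.05 there were 25 members, all higher, where 4.4% of all genes were higher at that p. DESeq2 called 7 members, all higher (0.508% of all genes in either direction). The 25 included all 12 core members (Isg15, Ifit1, Ifit3, Ifit3b, Rsad2, Irf7, Usp18, Oasl1, Oasl2, Oas1a, Cmpk2 and Ifi44), whose median was 1.47. The core members were picked as low at rest and inducible, with earlier results of these data known. Their count is therefore a description and not separate evidence. Of the 48 members 16 were higher with PPCA on all 3 days (14.8% of all genes) and 0 lower on all 3 (15.7%). In 3 of them, Irf7, Rsad2 and Oas1a, all PPCA libraries were above all vehicle libraries (3.4% of all genes). The calls turned on single days: without day 4 edgeR called 13 members (0.176% of all genes) and the median was 1.02, whereas without day 2 it called 0 and the median was 0.23, with 13 at an unadjusted p under 0.05 (5.05% of all genes). With Y-linked transcripts as a further factor 16 members passed (0.5% of all genes), all higher. That fit has 1 residual degree of freedom, and its factor takes up the difference between days 2 and 4.

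**Figure D2:**
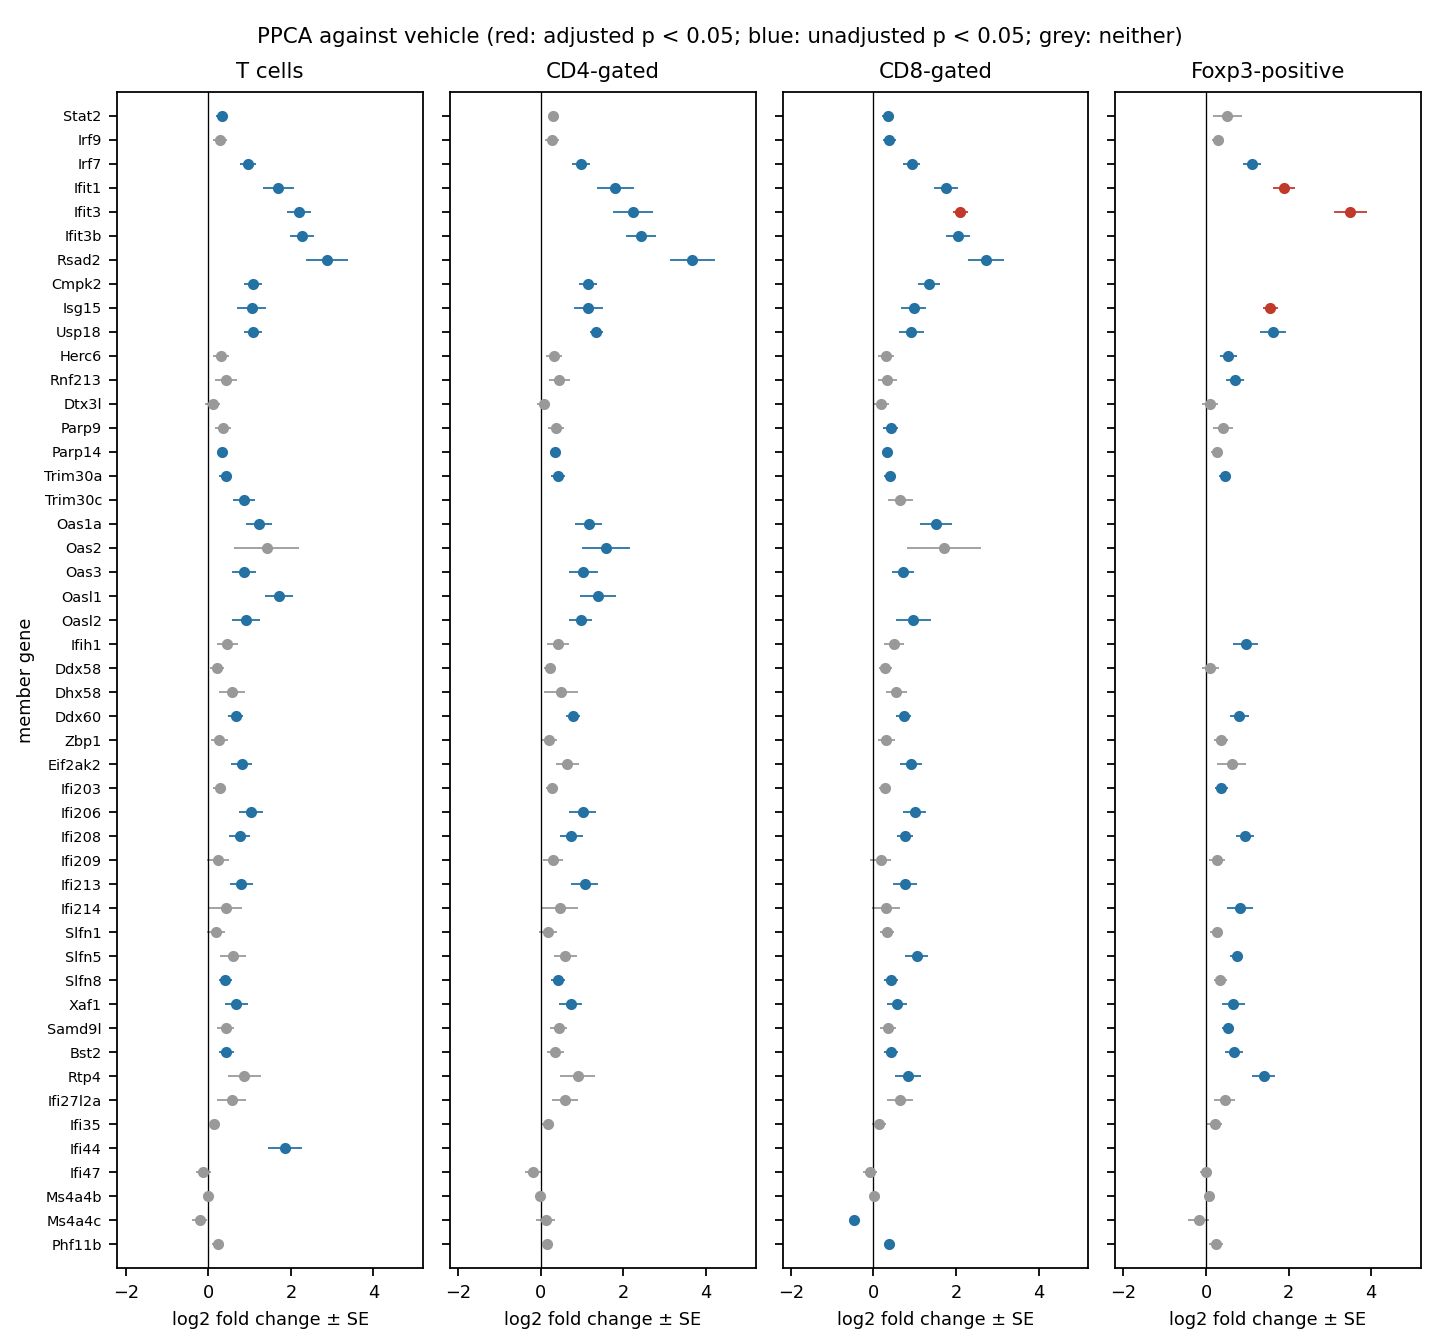
Log2 fold change of each member under PPCA against vehicle, with its standard error, in T cells, CD4-gated, CD8-gated and Foxp3-positive cells (3 libraries per arm, harvest day as a block); members that failed the low-count filter have no point. Most points lie to the right of 0 in each panel; red points are Ifit3 in CD8-gated cells and Ifit3, Isg15 and Ifit1 in Foxp3-positive cells.

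Irf7, the factor that amplifies the interferon response, was measured at 31.0, 26.0 and 25.2 CPM in the vehicle libraries of days 2, 3 and 4, 92.3, 50.4 and 31.8 CPM in the PPCA libraries of those days, and 51.2 CPM in the active and 27.0 CPM in the onset library. All 3 PPCA libraries were above all 3 vehicle libraries, with a log2 fold change of 0.96 (SE 0.20, edgeR unadjusted p = 0.00202, adjusted p = 0.423). The ISGF3 subunits had lower fold changes. Stat2 was at 19.2, 13.2 and 11.2 CPM in the vehicle libraries of days 2, 3 and 4, 21.6, 20.2 and 12.6 CPM in the PPCA libraries of those days, and 23.0 CPM in the active and 14.3 CPM in the onset library, with overlapping arms and 0.32 (SE 0.13, edgeR unadjusted p = 0.0358, adjusted p = 0.595). Irf9, its DNA-binding partner, was at 60.2, 49.5 and 46.9 CPM in the vehicle libraries of days 2, 3 and 4, 99.7, 64.2 and 39.2 CPM in the PPCA libraries of those days, and 73.6 CPM in the active and 58.4 CPM in the onset library. On day 4 Irf9 was lower with PPCA than with vehicle, and its log2 fold change was 0.29 (SE 0.17, edgeR unadjusted p = 0.133, adjusted p = 0.691).

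The IFIT and viperin genes, all restrictors of viral RNA or its synthesis, had the highest fold changes of the 8 role groups, with a median of 2.20 and 5 of 5 at an unadjusted p under 0.05. Ifit3, a gene of the same family as Ifit1, was at 7.34, 4.71 and 2.69 CPM in the vehicle libraries of days 2, 3 and 4, 57.3, 22.6 and 6.28 CPM in the PPCA libraries of those days, and 24.7 CPM in the active and 5.26 CPM in the onset library. Each PPCA library was above the vehicle library of its day, while PPCA day 4 was below vehicle day 2. The log2 fold change was 2.20 (SE 0.29, edgeR unadjusted p = 0.000111, adjusted p = 0.201). Ifit1, which binds RNA lacking the host cap methylation, was at 12.6, 10.1 and 6.75 CPM in the vehicle libraries of days 2, 3 and 4, 75.1, 41.8 and 8.38 CPM in the PPCA libraries of those days, and 58.1 CPM in the active and 12.8 CPM in the onset library. The arms overlapped through day 4. Its log2 fold change was 1.70 (SE 0.38, edgeR unadjusted p = 0.00267, adjusted p = 0.467). In both genes the active library lay between the PPCA libraries of days 2 and 3. Rsad2, which encodes viperin, was rare at 0.699, 0.359 and 0.500 CPM in the vehicle libraries of days 2, 3 and 4, 8.93, 4.51 and 1.02 CPM in the PPCA libraries of those days, and 4.70 CPM in the active and 0.975 CPM in the onset library. The arms did not overlap, and the log2 fold change was 2.87 (SE 0.51, edgeR unadjusted p = 0.000709, adjusted p = 0.365). Cmpk2, the nucleotide kinase gene beside Rsad2, was at 3.42, 2.13 and 1.44 CPM in the vehicle libraries of days 2, 3 and 4, 8.28, 5.69 and 2.04 CPM in the PPCA libraries of those days, and 6.56 CPM in the active and 2.05 CPM in the onset library (log2 fold change 1.09, SE 0.22). Ifit3b, a near copy of Ifit3, was at 1.99, 1.22 and 0.500 CPM in the vehicle libraries of days 2, 3 and 4, 14.4, 6.15 and 1.22 CPM in the PPCA libraries of those days, and 5.37 CPM in the active and 1.46 CPM in the onset library (log2 fold change 2.27, SE 0.29). How reads shared by Ifit3 and Ifit3b were counted is not stated, so their split is uncertain.

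In the ubiquitin-like and ADP-ribosyl group all 9 members had a positive log2 fold change (median 0.42), and 5 reached an unadjusted p under 0.05. Isg15, the ubiquitin-like protein attached to targets after interferon, was at 35.7, 35.1 and 25.2 CPM in the vehicle libraries of days 2, 3 and 4, 140.0, 86.0 and 22.2 CPM in the PPCA libraries of those days, and 113 CPM in the active and 38.7 CPM in the onset library. Days 2 and 3 were higher with PPCA and day 4 was lower. The log2 fold change was 1.05 (SE 0.35, edgeR unadjusted p = 0.0198, adjusted p = 0.589). Usp18, which removes ISG15 and dampens receptor signalling, was at 8.66, 7.24 and 4.56 CPM in the vehicle libraries of days 2, 3 and 4, 24.8, 17.7 and 5.84 CPM in the PPCA libraries of those days, and 25.5 CPM in the active and 8.85 CPM in the onset library. It was higher with PPCA on each day with overlapping arms, by 1.08 (SE 0.21, edgeR unadjusted p = 0.00131, adjusted p = 0.391). The next 4 genes shared one pattern, higher with PPCA on days 2 and 3 and lower on day 4. Parp14, an ADP-ribosyl transferase gene, was at 80.0, 62.9 and 44.8 CPM in the vehicle libraries of days 2, 3 and 4, 121, 88.0 and 42.1 CPM in the PPCA libraries of those days, and 102 CPM in the active and 75.7 CPM in the onset library (log2 fold change 0.33, SE 0.13). Dtx3l, the E3 ligase gene that partners Parp9, was at 46.0, 43.3 and 47.7 CPM in the vehicle libraries of days 2, 3 and 4, 65.0, 54.6 and 32.9 CPM in the PPCA libraries of those days, and 64.5 CPM in the active and 48.5 CPM in the onset library (log2 fold change 0.11, SE 0.19). Rnf213, a large RING E3 ligase gene, was at 55.2, 54.0 and 45.2 CPM in the vehicle libraries of days 2, 3 and 4, 112, 88.9 and 31.9 CPM in the PPCA libraries of those days, and 109 CPM in the active and 49.5 CPM in the onset library (log2 fold change 0.43, SE 0.26). The pattern was the same in the tripartite motif gene Trim30a, at 67.7, 67.7 and 50.7 CPM in the vehicle libraries of days 2, 3 and 4, 119, 97.6 and 47.5 CPM in the PPCA libraries of those days, and 117 CPM in the active and 72.1 CPM in the onset library (log2 fold change 0.42, SE 0.16). Trim30a and Trim30c are similar genes, so their reads may have been split.

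The OAS family, enzymes that make linked oligoadenylate on double-stranded RNA and so activate RNase L, together with the OAS-like Oasl1 and Oasl2, had a median of 1.24 and 4 of 5 members at an unadjusted p under 0.05. Oas1a was at 1.32, 0.937 and 1.21 CPM in the vehicle libraries of days 2, 3 and 4, 5.31, 2.14 and 1.68 CPM in the PPCA libraries of those days, and 3.73 CPM in the active and 2.80 CPM in the onset library. The arms did not overlap, and the log2 fold change was 1.24 (SE 0.32, edgeR unadjusted p = 0.0054, adjusted p = 0.521). Oasl1 was at 0.915, 0.638 and 0.404 CPM in the vehicle libraries of days 2, 3 and 4, 4.05, 2.64 and 0.664 CPM in the PPCA libraries of those days, and 2.91 CPM in the active and 1.62 CPM in the onset library, higher with PPCA on each day, with 1.72 (SE 0.34, edgeR unadjusted p = 0.00126, adjusted p = 0.391). Oasl2 was at 3.63, 3.25 and 8.70 CPM in the vehicle libraries of days 2, 3 and 4, 13.7, 6.65 and 7.79 CPM in the PPCA libraries of those days, and 12.5 CPM in the active and 3.49 CPM in the onset library (log2 fold change 0.91, SE 0.35), and its vehicle library of day 4 was above those of days 2 and 3. Oas2 had the log2 fold change with the widest error of the family, 1.42 (SE 0.79), and Oas3 had 0.87 (SE 0.29). The OAS genes are similar to each other, so shared reads may have been split.

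The nucleic acid sensors had a median log2 fold change of 0.52, with 2 of 6 at an unadjusted p under 0.05. Eif2ak2, the kinase PKR that halts translation on double-stranded RNA, was at 3.93, 4.19 and 2.44 CPM in the vehicle libraries of days 2, 3 and 4, 11.6, 5.82 and 3.10 CPM in the PPCA libraries of those days, and 9.55 CPM in the active and 3.23 CPM in the onset library, higher with PPCA on each day (log2 fold change 0.81, SE 0.25, edgeR unadjusted p = 0.0139, adjusted p = 0.572). Ddx58, the RNA sensor RIG-I, was at 57.4, 52.0 and 43.9 CPM in the vehicle libraries of days 2, 3 and 4, 84.1, 68.4 and 34.2 CPM in the PPCA libraries of those days, and 73.0 CPM in the active and 58.7 CPM in the onset library (log2 fold change 0.20, SE 0.17). Ifih1, the RNA sensor MDA5, was at 10.2, 10.2 and 8.16 CPM in the vehicle libraries of days 2, 3 and 4, 22.8, 14.7 and 6.44 CPM in the PPCA libraries of those days, and 18.1 CPM in the active and 11.6 CPM in the onset library (log2 fold change 0.46, SE 0.25). These RNA sensors, Dhx58 and Zbp1 were each higher with PPCA on days 2 and 3 and lower on day 4. Dhx58, the regulator LGP2, was at 4.17, 4.43 and 3.02 CPM in the vehicle libraries of days 2, 3 and 4, 11.3, 6.73 and 2.23 CPM in the PPCA libraries of those days, and 9.99 CPM in the active and 4.59 CPM in the onset library (log2 fold change 0.57, SE 0.32). Zbp1, a sensor of Z-form nucleic acid, was at 54.4, 54.6 and 49.3 CPM in the vehicle libraries of days 2, 3 and 4, 95.1, 73.3 and 36.0 CPM in the PPCA libraries of those days, and 90.4 CPM in the active and 67.9 CPM in the onset library (log2 fold change 0.27, SE 0.21). The PYHIN family, which includes DNA-binding proteins, had a median of 0.59 and 3 of 6 at an unadjusted p under 0.05. Ifi203 was at 316, 329 and 264 CPM in the vehicle libraries of days 2, 3 and 4, 494, 438 and 225 CPM in the PPCA libraries of those days, and 418 CPM in the active and 330.2 CPM in the onset library (log2 fold change 0.28, SE 0.16). Ifi213 was at 1.78, 1.44 and 1.08 CPM in the vehicle libraries of days 2, 3 and 4, 4.66, 2.58 and 1.13 CPM in the PPCA libraries of those days, and 2.12 CPM in the active and 1.87 CPM in the onset library, higher with PPCA on each day (log2 fold change 0.80, SE 0.29, edgeR unadjusted p = 0.0259, adjusted p = 0.594). The PYHIN genes are similar to each other, so shared reads may have been split.

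The Schlafen and growth-restraint group had a median of 0.42, with 2 of 5 at an unadjusted p under 0.05. Slfn1, linked to T cell quiescence, was at 126, 107 and 96.7 CPM in the vehicle libraries of days 2, 3 and 4, 212, 138 and 66.4 CPM in the PPCA libraries of those days, and 159.7 CPM in the active and 127 CPM in the onset library (log2 fold change 0.20, SE 0.22). Slfn5 was at 55.2, 49.5 and 43.8 CPM in the vehicle libraries of days 2, 3 and 4, 149.8, 84.6 and 31.6 CPM in the PPCA libraries of those days, and 98.3 CPM in the active and 58.2 CPM in the onset library (log2 fold change 0.59, SE 0.31). Xaf1, a promoter of apoptosis, was at 27.3, 24.7 and 24.0 CPM in the vehicle libraries of days 2, 3 and 4, 74.1, 44.4 and 19.4 CPM in the PPCA libraries of those days, and 46.2 CPM in the active and 27.7 CPM in the onset library (log2 fold change 0.68, SE 0.28). All 3 were lowest of the 8 libraries in PPCA day 4. The Schlafen genes too are similar to each other. Among the membrane and remaining genes 6 of 9 had a positive log2 fold change (median 0.24). Ifi44, the member with the lowest mean level, was at 0.296, 0.259 and 0.135 CPM in the vehicle libraries of days 2, 3 and 4, 1.74, 0.907 and 0.243 CPM in the PPCA libraries of those days, and 1.08 CPM in the active and 0.244 CPM in the onset library (log2 fold change 1.86, SE 0.42, edgeR unadjusted p = 0.00276, adjusted p = 0.467). Bst2, the tetherin that holds virus at the cell surface, was at 96.1, 103 and 83.6 CPM in the vehicle libraries of days 2, 3 and 4, 183, 146 and 75.5 CPM in the PPCA libraries of those days, and 152 CPM in the active and 100.2 CPM in the onset library (log2 fold change 0.44, SE 0.18). Ifi27l2a, an interferon-induced gene, was at 366, 379.7 and 461 CPM in the vehicle libraries of days 2, 3 and 4, 1134, 575 and 315 CPM in the PPCA libraries of those days, and 787 CPM in the active and 507 CPM in the onset library (log2 fold change 0.57, SE 0.35). In Bst2 and Ifi27l2a the PPCA library of day 2 was the highest and that of day 4 the lowest of the 8. Rtp4, a receptor chaperone gene, was at 13.4, 13.1 and 8.85 CPM in the vehicle libraries of days 2, 3 and 4, 50.4, 28.8 and 5.86 CPM in the PPCA libraries of those days, and 43.2 CPM in the active and 12.8 CPM in the onset library (log2 fold change 0.87, SE 0.41). Phf11b was at 46.5, 43.6 and 43.3 CPM in the vehicle libraries of days 2, 3 and 4, 69.1, 56.2 and 36.9 CPM in the PPCA libraries of those days, and 53.6 CPM in the active and 54.8 CPM in the onset library (log2 fold change 0.24, SE 0.15). The 3 members with negative values follow, and none had an unadjusted p under 0.05 in all T cells. Ms4a4b, a membrane protein gene of T cells, was at 952, 925 and 680.1 CPM in the vehicle libraries of days 2, 3 and 4, 972, 955 and 635 CPM in the PPCA libraries of those days, and 1072 CPM in the active and 867 CPM in the onset library (log2 fold change -0.004, SE 0.086). Ifi47, an interferon-induced GTPase gene, was at 128, 133 and 90.3 CPM in the vehicle libraries of days 2, 3 and 4, 156, 138 and 54.4 CPM in the PPCA libraries of those days, and 159 CPM in the active and 152 CPM in the onset library (log2 fold change -0.12, SE 0.18). Ms4a4c was at 37.8, 46.5 and 12.7 CPM in the vehicle libraries of days 2, 3 and 4, 27.3, 32.4 and 16.4 CPM in the PPCA libraries of those days, and 50.4 CPM in the active and 16.2 CPM in the onset library (log2 fold change -0.21, SE 0.18), with the vehicle library of day 4 and the onset library lowest.

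Day by day, without a test since each pair holds 1 library per arm, the median log2 ratio of PPCA to vehicle over the 48 members in T cells was 1.26 on day 2, 0.60 on day 3 and -0.15 on day 4. The medians over all genes were 0.011, 0.00054 and -0.018. Members at least 2-fold higher numbered 28, 17 and 3 on the 3 days, where 2.6%, 1.41% and 4.16% of all genes were. The 3 on day 4 were Ifit3, Ifit3b and Rsad2. At least 2-fold lower were 0, 0 and 1 members, the last Oas2, against 4.37%, 2.07% and 1.61% of all genes. The same order held within the gates, at 1.27, 0.55 and -0.27 in CD4-gated, 1.12, 0.59 and -0.15 in CD8-gated and 0.83, 0.48 and -0.12 in Foxp3-positive cells. A list of 10 genes of dissociation and early response, such as Fos and Jun, was lowest in the PPCA library of day 2 at 859 CPM and highest on day 4, at 4629 CPM under vehicle and 6973 CPM under PPCA. Its part in the day pattern was not tested. The active library exceeded the onset library in 45 of 48 members, with a median log2 ratio of 0.69 against 0.0032 over all genes, and in 19 members by at least 2-fold (3.0% of all genes). The highest ratios were 2.23 for Ifit3 (95% counting interval 2.04 to 2.43), 2.27 for Rsad2 (1.82 to 2.75) and 2.18 for Ifit1 (2.05 to 2.31). Such intervals reflect only counting, and 1 library each allows no test. The active library was also above all 3 vehicle libraries in 47 members (24.7% of all genes), and the onset library in 30 (23.8%).

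**Figure D3:**
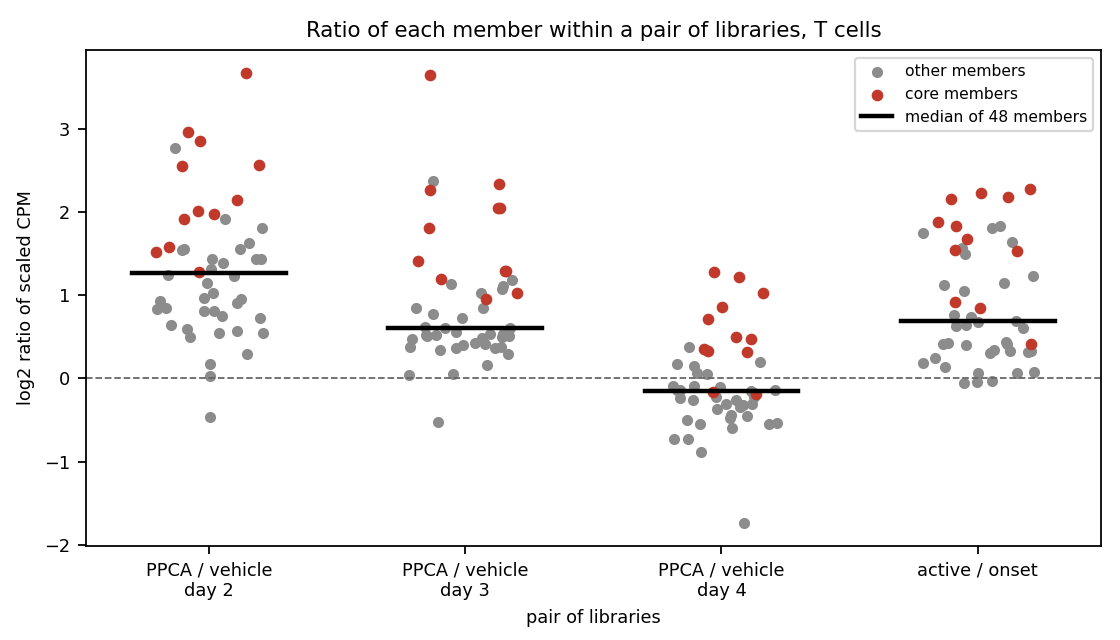
Log2 ratio of scaled CPM of each of the 48 members in T cells within 4 pairs of libraries: PPCA over vehicle on days 2, 3 and 4, and active over onset; red points are the 12 core members, grey points the other 36 and black bars the medians. The medians are 1.26, 0.60, -0.15 and 0.69, and most core members lie above the median of each column. Isg15 and Oasl2 on day 4 and Oas1a in active over onset lie below it.

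Subsets were gated by transcripts: CD4-gated cells had Cd4 and no Cd8a or Cd8b1, CD8-gated cells the reverse, and Foxp3-positive cells at least 1 UMI of Foxp3, the factor of regulatory T cells. In CD4-gated cells (2646 to 4746 per library) 46 members were tested and the median log2 fold change under PPCA was 0.48, with 44 positive (50.2% of all genes). No member passed, as no gene of 11584 did (0.0%). At an unadjusted p under 0.05 there were 21, all higher (3.66% of all genes), and DESeq2 called 4 (0.294%). With the Y-linked factor 14 members passed (0.466%), and without day 4 29 did (1.05%). Without day 2 none did, the median fell to 0.23 and 8 were at an unadjusted p under 0.05 (4.88% of all genes). Usp18 came nearest in CD4-gated cells, at 8.04, 6.60 and 3.69 CPM under vehicle and 23.2, 17.4 and 7.38 CPM under PPCA. Its log2 fold change there was 1.35 (SE 0.15, edgeR unadjusted p = 3.06e-05, adjusted p = 0.177). Rsad2 had the highest in this gate, 3.67 (adjusted p = 0.296 by edgeR, SE 0.54), but it passed the low-count filter only through the PPCA libraries, so this value is a description. In CD8-gated cells (1621 to 4427 per library) the median over 46 members was 0.52, with 44 positive (50.6% of all genes). Only Ifit3 was called, as a higher gene, where 0.0172% of 11600 genes were called and 0.00862% as higher. At an unadjusted p under 0.05 there were 27 higher (4.6% of all genes) and 1 lower, Ms4a4c (3.47%). DESeq2 called 4 members, Ifit3 among them (0.362%). Ifit3 rose in CD8-gated cells from 12.9, 6.51 and 4.02 CPM under vehicle on days 2, 3 and 4 to 71.1, 31.3 and 10.3 CPM under PPCA, higher on each day with overlapping arms, by a log2 fold change of 2.11 (adjusted p = 0.0366 by edgeR, SE 0.19). The call was lost without doublet removal, with no replicate block and without the day 2 or day 3 pair. Without the day 4 pair 40 members passed, 39 of them higher (1.4% of all genes), and with the Y-linked factor 26, 25 of them higher (1.49%). Without day 2 the median was 0.23, with 11 members at an unadjusted p under 0.05 (5.58%). Ms4a4c was lower under PPCA in CD8-gated cells, at 89.3, 89.9 and 30.9 CPM under vehicle and 58.2, 58.3 and 27.8 CPM under PPCA (log2 fold change -0.47, SE 0.12, edgeR unadjusted p = 0.00311, adjusted p = 0.426).

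Foxp3-positive cells numbered 216 to 477 per library. The gate is leaky: a Foxp3 UMI was found in 2.16% to 6.41% of CD4-gated cells and in 0.745% to 2.07% of CD8-gated cells, whose median depths were 3855 to 6153 and 4274 to 7232 UMIs. Of 35 members tested there, 29 reached the minimum of the low-count filter in all 3 vehicle libraries, and 34 had a positive log2 fold change (median 0.52; 51.2% of all genes were positive). Past the threshold were 3, Ifit3, Isg15 and Ifit1, all higher, where 0.0713% of 8421 genes were called and 0.0475% as higher. At an unadjusted p under 0.05 there were 18, all higher (3.37%). Ifit3 was at 4.84, 3.48 and 0 CPM under vehicle on days 2, 3 and 4 (7, 7 and 0 UMIs) and at 48.5, 27.9 and 27.1 CPM under PPCA (108, 37 and 32 UMIs), with no overlap. Its fitted log2 fold change was 3.50 (adjusted p = 0.00544 by edgeR, SE 0.40). None of its vehicle libraries reached the minimum of the low-count filter, so it was tested only through the PPCA libraries, where it was high, and the fitted value depends on the prior count. It is given as a description. Isg15 rose from 39.4, 45.2 and 23.6 CPM to 159, 122 and 48.2 CPM, also with no overlap, by 1.55 (adjusted p = 0.00544 by edgeR, SE 0.18). Ifit1 rose from 18.7, 11.9 and 1.69 CPM to 67.4, 38.5 and 15.2 CPM, higher on each day with overlapping arms, by 1.89 (adjusted p = 0.0156 by edgeR, SE 0.26). It reached the minimum of the filter in 2 vehicle libraries, and Isg15 in all 3. The calls of Isg15 and Ifit1 held without the pair of any one day, and 17 members passed without day 4 (1.08% of all genes). Without day 2 the median was 0.24, with 10 at an unadjusted p under 0.05 (6.76%). With the Y-linked factor 12 passed (1.29%). With no replicate block none was called (adjusted p of Isg15 = 1), and DESeq2 gave an adjusted p for only 3 of the 35 members and called 0 of them (0.0713% of all genes), with 10 members at an unadjusted p under 0.05. The active library was high in these cells too, with Ifit3 at 42.3 CPM in the active and 3.15 CPM in the onset library and Isg15 at 153 CPM in the active and 27.0 CPM in the onset library. The stretches of Ifit3, Isg15 and Ifit1 printed above were chosen because these genes were called, so their capitals add nothing to the calls.

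Whether the PPCA effect differed between CD8-gated and CD4-gated cells was tested as an interaction. No member of 48 passed, while 1 gene of 12153 did (0.00823%), and 5 members had an unadjusted p under 0.05 (3.71% of all genes). DESeq2 also called 0 members. Slfn5 had the smallest p, with an effect higher in CD8-gated cells by 0.46 (SE 0.086, edgeR unadjusted p = 0.000168, adjusted p = 0.547). Ms4a4c had an effect lower there by -0.56 (SE 0.13, edgeR unadjusted p = 0.00103, adjusted p = 1). Without the low-count filter these 2 members passed, where 0.254% of 20852 genes did. For Isg15 the difference of effects was -0.20 (SE 0.11) and for Ifit1 -0.13 (SE 0.18).

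The levels themselves differed between the subsets within libraries. Of 47 members tested, 31 passed an adjusted p of 0.05 between CD8-gated and CD4-gated cells over the 8 libraries, 24 higher in CD8-gated cells and 7 lower, where 46.1% of 11562 genes passed, 23.3% higher and 22.8% lower. The median log2 difference was 0.13. Trim30c was at 2.78 to 10.4 CPM in CD8-gated cells of the 8 libraries and 0 to 0.383 CPM in CD4-gated cells, or 49 to 172 UMIs against 0 to 6. It is among the 31, but passed the low-count filter only through the CD8-gated sums, where it is high, so its values are a description. Ms4a4c was at 27.8 to 94.6 CPM in CD8-gated and 4.46 to 14.6 CPM in CD4-gated cells, without overlap (log2 difference 2.51, SE 0.084, edgeR adjusted p = 2.37e-12). Oas3 differed by 1.01 (adjusted p = 1.62e-08 by edgeR, SE 0.072) and Ifit3 by 0.93 (adjusted p = 2.03e-05 by edgeR, SE 0.13), both higher in CD8-gated cells. On the other side stood Slfn5, at 17.5 to 88.1 CPM in CD8-gated and 41.2 to 179 CPM in CD4-gated cells and lower in CD8-gated cells in each library (log2 difference -1.19, SE 0.062, edgeR adjusted p = 4.68e-10). Oas2 differed by -1.39 (adjusted p = 1.98e-06 by edgeR, SE 0.15) and Ifi27l2a by -0.72 (adjusted p = 6.10e-08 by edgeR, SE 0.058). The OAS family was split, with Oas3 higher and Oas1a, Oas2, Oasl1 and Oasl2 lower in CD8-gated cells. With no replicate block, so with libraries not paired with themselves, 4 of 47 members passed, 3 higher and 1 lower, where 17.4% of all genes did. Between Foxp3-positive and Foxp3-negative CD4-gated cells 13 of 42 members passed, 5 higher and 8 lower, where 30.1% of 10487 genes did, 14.8% higher and 15.4% lower. This share is near that of all genes. The highest were Oas1a, by 1.89 (adjusted p = 1.08e-06 by edgeR, SE 0.28), and Eif2ak2, by 1.52 (adjusted p = 1.65e-06 by edgeR, SE 0.23), and the lowest was Cmpk2, by -1.26 (adjusted p = 0.013 by edgeR, SE 0.39). These 3 rest on few UMIs in Foxp3-positive cells, 3 to 21 per library for Oas1a, 2 to 21 for Eif2ak2 and 0 to 6 for Cmpk2, and Cmpk2 reached the minimum of the low-count filter there in 3 of 8 libraries. With no replicate block 4 of 42 passed, where 19.3% of all genes did.

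**Figure D4:**
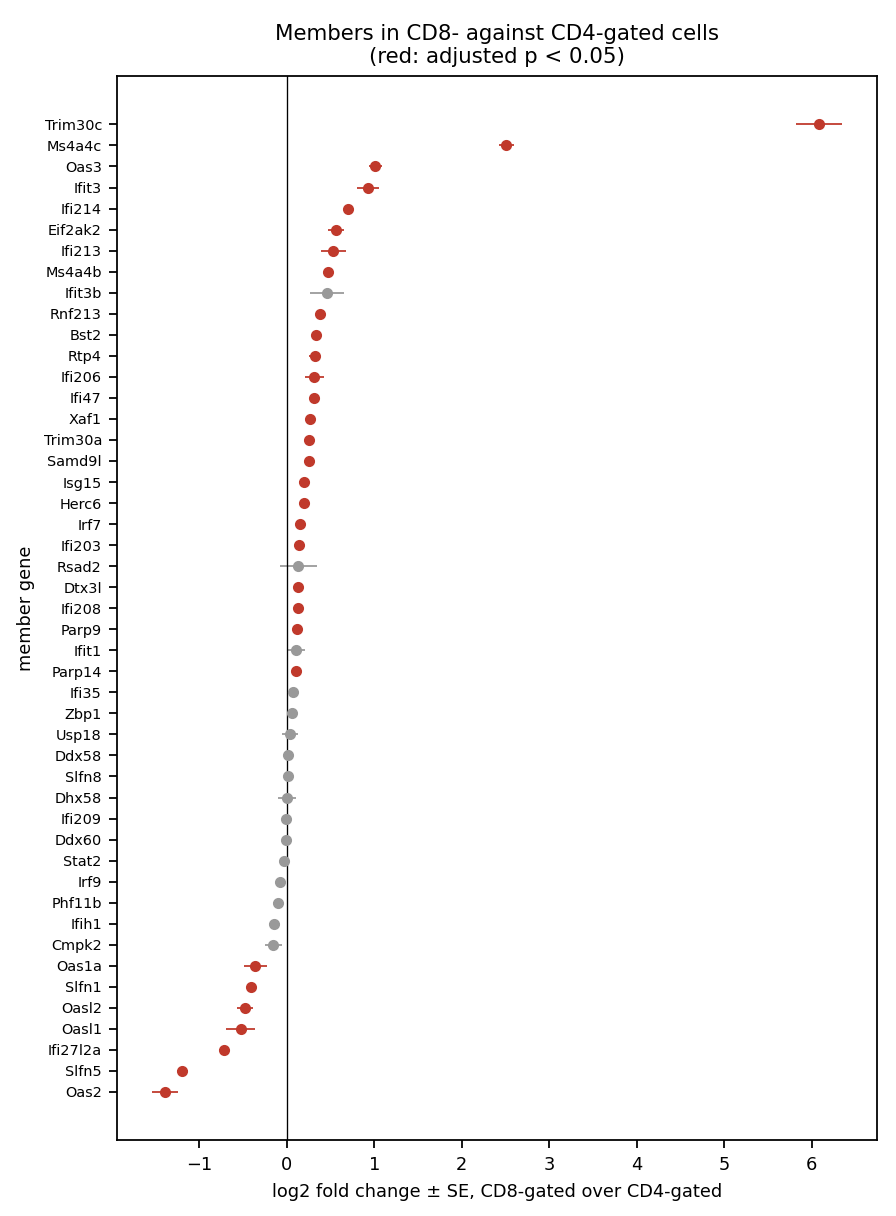
Log2 difference of each of the 47 tested members between CD8-gated and CD4-gated cells, with its standard error, over sums from the same 8 libraries; red points passed an adjusted p of 0.05. Ms4a4c stands to the right at 2.51, and Trim30c further, at a fitted value that rests on 0 to 6 UMIs per library in CD4-gated cells and on a filter passed only through CD8-gated cells, while Oas2 and Slfn5 lie furthest to the left at -1.39 and -1.19.

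Shares of cells with a member detected were read as well. UMIs were drawn down to 2000 in each T cell, without the cells that had fewer (50 in the active and 116 in the onset library, 110, 83 and 117 under vehicle and 269, 134 and 414 under PPCA). Cells with an Isg15 UMI made up 6.51%, 5.87% and 4.27% of T cells in vehicle mice on days 2, 3 and 4, compared with 18.1%, 11.9% and 3.94% in PPCA mice. The active library had 14.5% and the onset library 6.28%. An Ifit1 UMI was seen in 2.32%, 1.60% and 1.23% of cells with vehicle, and in 11.3%, 5.50% and 1.47% with PPCA. For Ifi27l2a the vehicle and PPCA shares were 41.6%, 36.5% and 40.3% against 61.9%, 43.9% and 32.8%, and for Bst2 18.1%, 15.8% and 13.4% against 27.7%, 21.4% and 12.7%. On day 4 the PPCA library was below the vehicle library for Isg15, Ifi27l2a and Bst2. No cell type in the sort is known to lack these genes, so a background share from free RNA was not measured. The UMIs were not evenly spread: an even spread of the Isg15 UMIs of the PPCA library of day 2 would have marked 27.3% of cells, where 18.1% had one. For Bst2 the same library gave 27.7% of cells against 33.6% for an even spread.

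Cells with at least 3 of the 12 core members detected at 2000 UMIs were then counted, as a range of one continuous count and not as a cell type. Under vehicle they were 0.795% (0.586 to 1.05), 0.367% (0.256 to 0.510) and 0.159% (0.0926 to 0.254) of T cells on days 2, 3 and 4 (exact Clopper-Pearson 95% intervals in parentheses, which cover counting error only). Under PPCA they were 8.48% (7.88 to 9.11), 3.40% (2.99 to 3.84) and 0.387% (0.280 to 0.521). The active library had 4.79% (4.30 to 5.32) and the onset library 0.627% (0.478 to 0.808). The PPCA libraries were higher on 3 of 3 days, and the day 4 PPCA library lay below the vehicle library of day 2. PPCA libraries averaged 4.09% ± 4.09 (SD, n = 3), while vehicle libraries averaged 0.440% ± 0.324 (SD, n = 3). The difference of 3.65 points gave p = 0.25 by exact sign flipping of the 3 daily differences (two-sided), the smallest it can give. Without thinning, PPCA libraries had 16.2%, 7.40% and 0.816% and vehicle libraries 2.83%, 1.63% and 0.998%, so that day 4 turned over. Cells near the limit were many: 643 cells of the PPCA library of day 2 had exactly 2 core members and 336 exactly 3, of 679 at or above it.

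**Figure D5:**
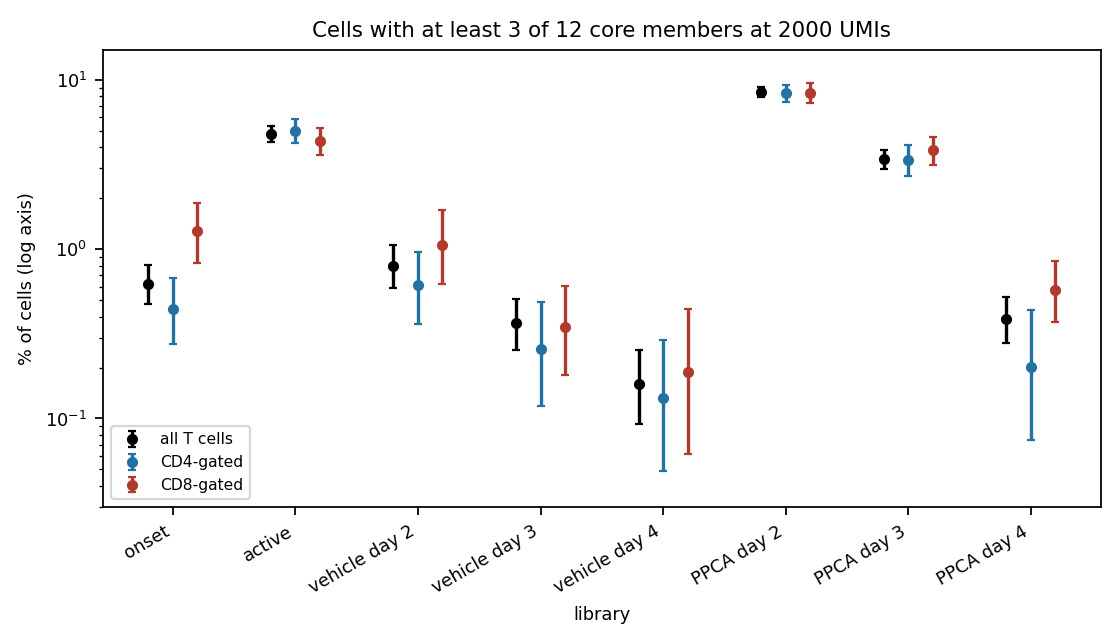
Share of cells with at least 3 of the 12 core members detected after thinning to 2000 UMIs, per library, on a log axis, for all T cells (black), CD4-gated (blue) and CD8-gated cells (red); bars are exact 95% intervals of counting error. PPCA day 2 (8.48% of T cells), active (4.79%) and PPCA day 3 (3.40%) stand above the other 5 libraries, which reach at most 0.795% in T cells and 1.27% in CD8-gated cells.

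The same 3 libraries stood out in both gates. Among CD4-gated cells, PPCA libraries had 8.35%, 3.36% and 0.202% and vehicle libraries 0.611%, 0.258% and 0.133%. In CD8-gated cells they were 8.41%, 3.83% and 0.577% against 1.06%, 0.347% and 0.189%. The active library had 5.03% in CD4-gated and 4.37% in CD8-gated cells. At least 1 core member was detected in 38.9% and 24.0% of T cells in the PPCA libraries of days 2 and 3 and in 28.4% in the active library, against 12.3% to 17.6% in the other 5. The 36 members that did not define the cells with at least 3 core members were measured inside and outside them. They summed to 15033 CPM inside and 5321 CPM outside in the PPCA library of day 2, and to 6765 and 2356 CPM in vehicle day 4, with the inside higher in each of the 8 libraries. Bst2 was 4.28 to 9.57 times as high inside, Ifi27l2a 2.95 to 8.92 times and Ms4a4b 1.51 to 3.63 times, in 8 of 8 libraries each. Of the 36, 28 were higher inside in all 8 libraries, 5 in 7 (Ddx58, Dhx58, Ms4a4c, Phf11b and Rtp4), Oas2 and Trim30c in 5 and Ifi213 in 4. The inside group held only 48, 35 and 17 cells in the vehicle libraries of days 2, 3 and 4. It held 43 cells in PPCA day 4 and 59 in onset. In vehicle day 4 Ddx58 and Phf11b had 1 UMI inside, and Dhx58, Ms4a4c and Rtp4 had 0. The lower tallies rest on few cells and UMIs, so they are not read as differences between genes. No such tally was made over all genes. Median depth before thinning was 4245 UMIs inside and 4186 outside in the PPCA library of day 2.

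The authors' deposited table of cluster markers, which names 7 clusters and does not say which cells each was compared with, places the members mainly in the cluster called CD4 Th1. There, 34 members made up 41.5% of its 82 listed genes and 70.8% of the 48 members, with 15 among its first 20 entries. Its other clusters listed 0 to 6 members each. In the authors' deposited table Ifi27l2a leads that cluster with a log2 fold change of 2.07, detected in 91.0% of its cells. The authors' deposited table gives Isg15 as 1.28 with 42.7% of cells, and Ifit1 as 1.12 with 29.0%. The cells with at least 3 core members counted above were found in both gates, with 29.4% to 58.1% CD8-gated in a library and 14.0% to 42.6% CD4-gated. Among the other T cells these ranges were 20.7% to 38.9% and 26.8% to 50.2%. The values 29.4%, 58.1% and 14.0% come from libraries with 17 or 43 such cells. In the PPCA library of day 2, with 679 such cells, 29.6% were CD8-gated and 37.6% CD4-gated. Its other T cells had 29.9% and 38.2%.

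Other genes of the pathway were read from lists. Of 11 ligand genes 2 passed the low-count filter, and Ifnb1 and Ifna4 had 0 UMIs in the T cells of all 8 libraries, which allows up to 3 UMIs per library. Both that passed had a positive log2 fold change in all T cells, 0.35 and 0.72, and neither had an unadjusted p under 0.05. Ifng, the type II interferon, was at 12.7, 13.2 and 30.6 CPM under vehicle and 17.9, 9.75 and 119 CPM under PPCA (log2 fold change 0.72, SE 0.40, edgeR adjusted p = 0.679). Among 8 receptor and kinase genes tested the median was 0.084 and none was called. Ifnar1 had 0.16 (SE 0.086) and Ifnar2 0.22 (SE 0.082), and Ifnar2 and Ifngr1 were the 2 at an unadjusted p under 0.05, both higher. Of 16 genes of the interferon-gamma response the median was 0.045, with 9 positive and 7 negative. Irf1 had 0.03 (SE 0.092), and Gbp2 was the 1 at an unadjusted p under 0.05, with -0.51 (SE 0.15, edgeR unadjusted p = 0.012, adjusted p = 0.572). Of 27 other interferon-stimulated genes, 20 were positive (median 0.15), with Isg20 and Ifitm3 higher and Ifitm1 lower at an unadjusted p under 0.05. Socs1, a brake on these receptors, had 0.44 (SE 0.093, edgeR unadjusted p = 0.00209, adjusted p = 0.423), and Ptpn6 was lower at an unadjusted p under 0.05 (log2 fold change -0.34, SE 0.11). The brakes had a median of 0.011 over 5 genes. The sensing adaptors had a median of -0.0093 over 10 genes, with Irf8 lower at an unadjusted p under 0.05 (log2 fold change -0.46, SE 0.13). Of the p53 targets, read as a check of the drugs, 7 were tested and none was called, 3 being positive and 4 negative with a median of -0.029. Cdkn1a had 1.03 (SE 0.26, edgeR unadjusted p = 0.00574, adjusted p = 0.524), at 1.42, 0.879 and 12.7 CPM under PPCA and 0.861, 0.638 and 4.35 CPM under vehicle.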

How the data were processed

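The deposited matrices hold unnormalised UMI counts per gene and barcode, made with Cell Ranger (6.0.0 per the file headers, 6.1.2 per the submitters' processing notes). For the genome build, annotation and strand setting nothing is given in these sources. The authors' deposited marker table gives a log2 fold change, p-values and the fraction of cells of a cluster with a gene, per the file headers, and the submitters' processing notes name Seurat.

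Cells with at least 500 genes and under 10% mitochondrial UMIs were kept. Scrublet (scanpy 1.11.5) scored doublets, and the highest scores were removed at a rate of 0.8% per 1000 barcodes, 6552 barcodes in all. Its automatic threshold, with 0 to 2 doublets in 7 libraries but 526 in PPCA day 4, was not used. A T cell was a barcode with 2 or more UMIs over 6 T cell genes and no more than 1 over 6 genes of other cells. Counts were summed per library and gate, 3 libraries per arm. They were fitted across all genes with edgeR 4.0.16 (quasi-likelihood, TMM, filterByExpr, harvest day as block, 2 residual degrees of freedom) with Benjamini-Hochberg adjusted p-values held against 0.05. Labels do not say whether libraries come from separate mice, so p-values measure the spread between these libraries. Libraries of a day deviated together (correlations across genes 0.372, 0.441 and 0.536 in T cells on days 2, 3 and 4, and above 0.1 in each gate), so day pairs them. Subset comparisons used the library as block. Ratios raised counts under 3 to 3. DESeq2 1.42.0, R 4.3.3 and scipy 1.17.1 were used. Independent counts were also simulated from the fitted means and dispersions, with the same treatment effect on each day. There, 2-fold changes in 200 of 12996 genes were recovered at 69.5% in T cells, with 14 false calls. The simulation held no sex difference and no effect that changes with the day, so it does not give the power in these libraries.

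Members and lists were chosen with earlier results of these data known. The naming rule takes the core members, 22 other members, members past the threshold and, at a mean of at least 10 CPM, the 3 highest and 3 lowest fold changes in all T cells and in each of the CD4 and CD8 gates. Genes named by rank in cells, subsets or promoters were chosen after their values were seen. Alternatives covered scaling, filters, doublets, gates, the block, days and libraries left out, and a Y-linked factor. Plain CPM was added after seeing the data. One gene of the naming rule is not reported here.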

Additional observations from a re-analysis of the deposited data

How the results depend on the processing

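Scaling by DESeq2 size factors, looser cell filters and T gene gating alone kept the counts of members called within 1.5 times of those given. Without a low-count filter, 15 members passed under PPCA in T cells, 20 in CD4-gated, 28 in CD8-gated and 13 in Foxp3-positive cells, each of 48, where 133 of 21454, 202 of 19589, 242 of 19362 and 90 of 15923 genes did, and 2 in the test of the difference between gates, where 53 of 20852 did. DESeq2 called 7, 4, 4 and 0 in the 4 cell sets. With Y-linked transcripts as a factor, 16, 14, 26 and 12 passed. Leaving out a day pair gave 0 to 13 members in T cells, 0 to 29 in CD4-gated, 0 to 40 in CD8-gated and 3 to 17 in Foxp3-positive cells, the upper value each time without day 4. With no replicate block the counts were 0 in all 4 sets, and 4 of 47 between CD8-gated and CD4-gated cells (2013 of 11562 genes) and 4 of 42 between Foxp3-positive and Foxp3-negative cells (2022 of 10487). Without doublet removal the count in CD8-gated cells was 0. The cause of these changes was not tested. The median log2 fold change of the members under PPCA stayed positive in each of these fits of the 4 cell sets, while it was -0.017 in the test of the difference between gates without day 3, against 0.011 with all days. With plain CPM in place of TMM scaling, the day 3 median ratio was 0.78 in place of 0.60. The difference in the share of cells with at least 3 core members stayed positive under the alternatives run, from 1.52 points thinned to 1000 UMIs to 6.32 without thinning, and 1.63 to 5.36 points with a day left out. It was 6.59 points for cells with at least 2 core members and 1.88 for at least 4. Depth limits Foxp3-positive cells, where 13 members failed the low-count filter, and Rsad2, Ifi44 and Ifit3b, which rest on few UMIs.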
